A study of Homo sapiens with 6 samples.

Results

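The proteasome genes were measured in T24 cells, a line established from a human bladder carcinoma, with and without oxidized low-density lipoprotein (ox-LDL), the plasma cholesterol carrier after oxidation of its lipids and protein. They were chosen by name, as the probe sets whose gene symbol on the array platform begins with PSMA to PSMG and a digit, which gave 49 genes with 1 probe set each among 21448 tested probe sets. The ox-LDL group held 3 arrays of cells exposed for 24 h to 20 µg/mL, and the vehicle group 3 arrays of cells exposed to vehicle for the same time. All cells had been kept without serum for 12 h beforehand, and 10% serum is also given for all 6 samples, so both groups share these. The labels do not name separate cultures, so p-values measure only the spread among these 6 samples and may reflect technical spread alone.

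The proteasome is the protease that degrades proteins tagged with ubiquitin. Its core particle is a barrel of alpha subunits (PSMA genes), which form the outer rings and gate the entry, and beta subunits (PSMB genes), some of which cut. A regulatory particle of base and lid subunits (PSMC and PSMD genes) binds, unfolds and feeds in tagged proteins, other activators (PSME genes) can take its place, and dedicated chaperones (PSMG genes) build the core. Cytokines such as interferon gamma exchange the cutting subunits for inducible ones, which favours peptides for display to T cells. By class there were 21 core, 18 base and lid and 10 activator and assembly symbols. The rule also took in 4 symbols that name no proteasome part, which were PSMC3IP, a cofactor of meiotic recombination, and the antisense RNAs PSMA3-AS1, PSMB8-AS1 and PSMG3-AS1. They are counted with their classes, and counts without them are given where they matter. PSMC5, PSMD7, PSMD13 and PSME2 were not analysed here.

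A free-text label speaks of siRNA against G9a and contradicts the titles, which were followed. EHMT2, the G9a gene, was higher by 0.37 on the log2 scale in ox-LDL cells, with an SE of 0.12, and did not pass (adjusted p = 0.125). Vehicle array 3 stood apart from the rest, with correlations across probe sets of 0.979 to 0.988 with the other arrays, against 0.992 to 0.997 among those 5. Of the epithelial markers, KRT7, KRT8 and KRT18 were at mean log2 values of 11.91 to 12.25 with ox-LDL and 11.89 to 12.10 with vehicle. EPCAM, UPK2, GATA3, KRT5, KRT19 and PPARG lay lower, from 5.61 (EPCAM) to 8.88 (PPARG) with ox-LDL and 5.48 to 8.70 with vehicle. The mesenchymal markers VIM, CDH2 and ZEB1 had means of 12.67, 10.25 and 9.93 with ox-LDL and 12.74, 9.82 and 10.12 with vehicle. CDH1 and UPK3A, 2 of 11 epithelial markers, and PTPRC, 1 of 4 leukocyte markers, were in both groups no brighter than the 95th percentile of negative control probe sets, a log2 value of 5.21. The defining markers E-cadherin (CDH1) and uroplakin UPK3A were thus not measured above background. The other leukocyte markers lay above that percentile, with means in ox-LDL and vehicle cells of 7.19 and 7.54 for CD14, 7.19 and 7.31 for CSF1R and 5.44 and 5.503 for CD3E, as did all 3 endothelial and all 3 fibroblast markers. None of these markers passed the test, and their part in the results was not tested.

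In the comparison of ox-LDL with vehicle, most proteasome genes did not pass the test. PSMB9, an inducible cutting subunit, PSMG4, a chaperone of core assembly, and the antisense RNA PSMB8-AS1 rose, and the other 46 did not pass (adjusted p under 0.05 in limma, by Benjamini-Hochberg over 21448 probe sets). These 3 calls are 6.12% of the 49 genes, against 6.77% of all tested probe sets called in either direction, 3.48% higher and 3.29% lower. Cell number and RNA per cell were not measured, and changes in them cannot be told apart in such bulk samples. The share called was near the background, and with the antisense RNAs and PSMC3IP left out 2 of 45 remained. None of the 3 kept its call when any 1 array other than vehicle array 3 was left out, where the background called was 1.44%, 1.42% and 1.56% without ox-LDL array 1, 2 or 3 and 3.76% and 3.35% without vehicle array 1 or 2. With equal array medians, a second quantile normalization or cyclic loess, PSMG4 and PSMB9 were called and PSMB8-AS1 was not (backgrounds 6.64%, 6.59% and 6.85%). An unmoderated t statistic called PSMB9 and PSMD1 (5.07%). More were called among brighter probe sets (7 of 45, against 24.3%), with an intensity trend and robust variance (10 of 49, against 12.4%) and with array weights (9 of 49, against 18.5%), all of them higher with ox-LDL.

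Most differences were small and positive. Of the 49 log2 differences, 42 were above 0 and 7 below, with a median of 0.15, whereas the median over all tested probe sets was -0.03 with 44.9% above 0. Among probe sets brighter than the median level, where all but 4 of the proteasome genes lie, the median was 0.05 with 57.5% above 0. The 3 ox-LDL arrays lay above the 3 vehicle arrays for 29 of 49 genes, against 19.1% of all tested probe sets and 31.5% of the brighter ones, and below them for 3, against 17.7% of all. An unadjusted p under 0.05 was reached by 12 of 49 (24.5%), all higher with ox-LDL. Of all probe sets 13.5% reached it higher and 26.1% in either direction. Of the 10724 brighter ones 2271 reached it higher and 35% in either direction. Only PSMG1 differed by at least 1.5-fold, as 3.89% of all probe sets did, and without vehicle array 3 it did not (log2 difference 0.36). No gene met the selection in the study's design text (p at or below 0.001 and at least 1.5-fold), which 2.31% of all probe sets did. The median half-width of a gene's 95% confidence interval was 0.18 on the log2 scale, so differences of the size of the median could not be resolved gene by gene.

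**Figure D1:**
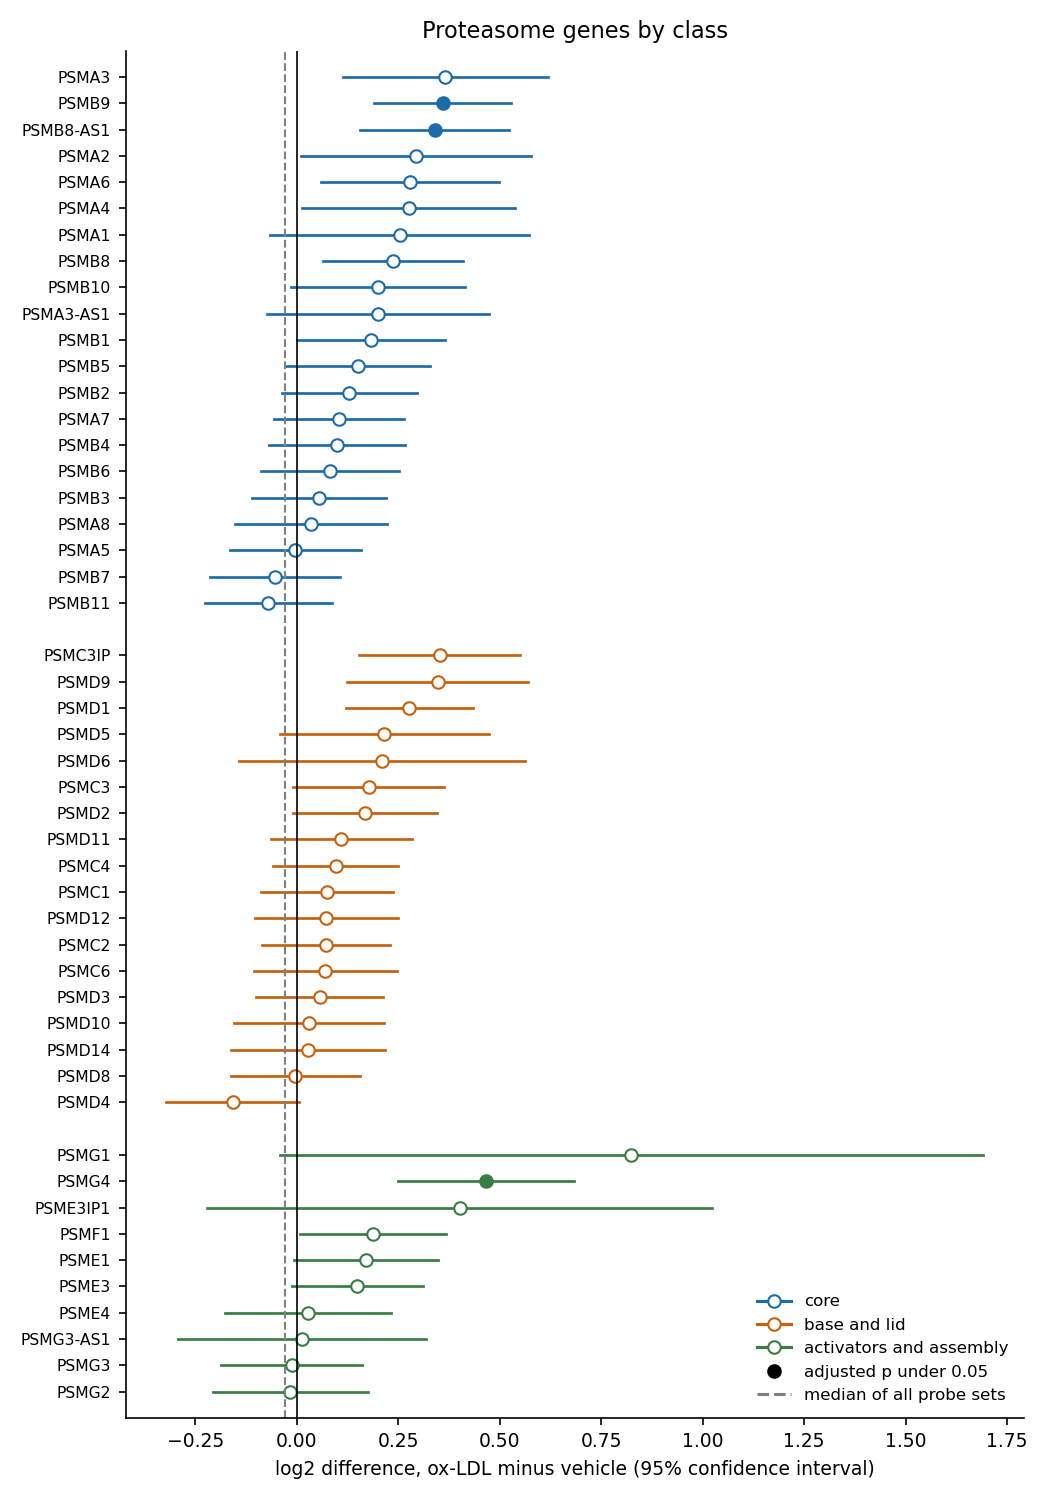
Log2 difference of each of the 49 proteasome genes, ox-LDL minus vehicle, on the horizontal axis with its 95% confidence interval from limma, grouped by class and sorted within it. Filled points passed the test. The dashed line is the median of all tested probe sets at -0.03, and 42 points lie right of 0.

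The arrays of a group did not share these levels evenly. For each gene the value on an array was taken relative to its mean over the 6 arrays, and the median over the 49 genes was 0.06, 0.09 and 0.08 on the ox-LDL arrays, against -0.03, -0.03 and -0.12 on the vehicle arrays. The 3 ox-LDL arrays lay close together and above all vehicle arrays, and vehicle array 3 lay lowest. It was the lowest of the 6 arrays for 32 of 49 genes, against 28.3% of all tested probe sets and 41.8% of the brighter ones. Without it the median log2 difference of the 49 genes was 0.10 and 39 were above 0. Over all tested probe sets that median was then -0.01 with 47.9% above 0, and over the brighter ones 0.02 with 54.6% above 0. The ox-LDL arrays lay above both remaining vehicle arrays for 33, against 24.0% of all probe sets and 36.5% of the brighter ones. In that fit 5 passed, which were PSMB9, PSMG4, PSMB8-AS1, PSMD1 and PSMC3IP. The background called there was 12.4% of all probe sets, and 2120 of the 10724 brighter ones.

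**Figure D2:**
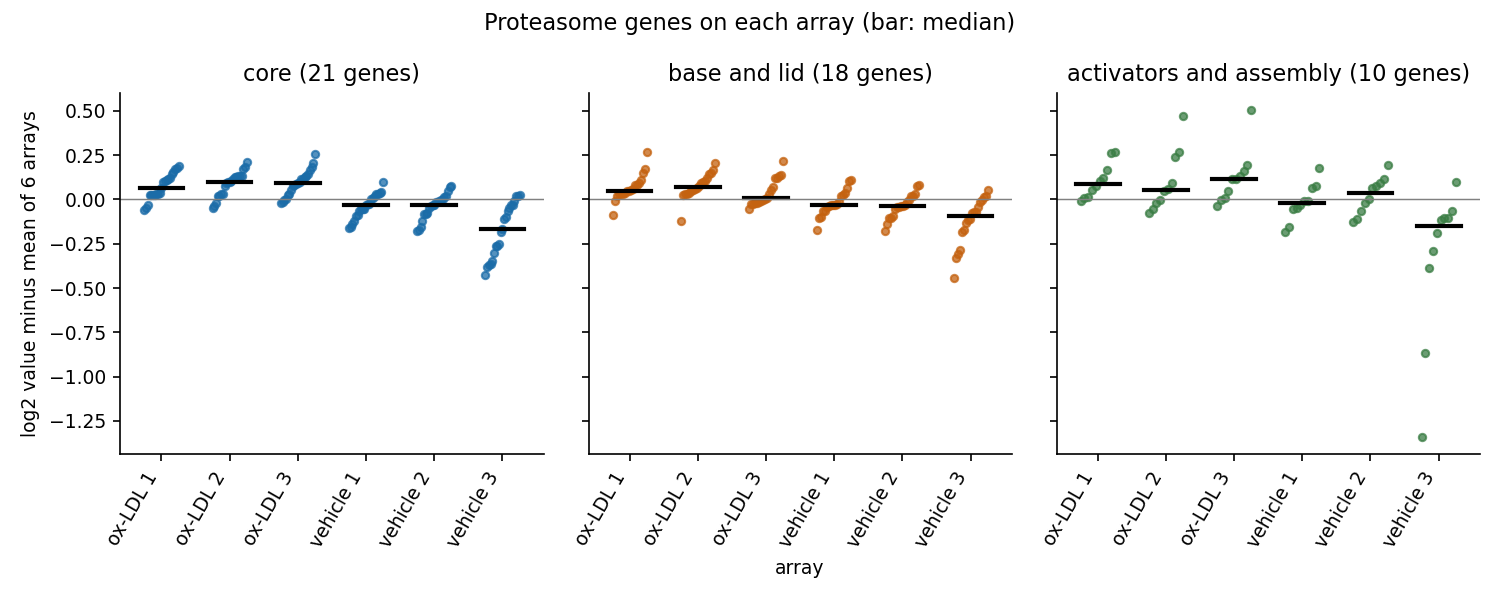
Log2 value of every proteasome gene on each array, relative to its mean over the 6 arrays, in 3 panels by class, with 1 point per gene and a black bar at the median. The medians of the 3 ox-LDL arrays are above 0 in each class, though only 0.0064 for base and lid on ox-LDL array 3. Vehicle array 3 is lowest in each class, with a core median of -0.17. Vehicle array 2 is also above 0 for activators and assembly, at 0.03.

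Differences were mostly positive in each class. The core's 21 symbols had a median log2 difference of 0.18 with 18 above 0, the 18 of base and lid 0.09 with 16 above 0, and the 10 activators and assembly factors 0.16 with 8 above 0. Called were 2, 0 and 1, against 6.77% of all tested probe sets. The ox-LDL arrays lay wholly above the vehicle arrays for 15 of 21, 9 of 18 and 5 of 10, against 19.1% of all probe sets and 31.5% of the brighter ones. Without vehicle array 3 the 3 medians were 0.12, 0.08 and 0.11, and after cyclic loess normalization that of base and lid was 0.03. With PSMC3IP and the antisense RNAs left out they were 0.15, 0.07 and 0.17, so the order of core and activators turned. The genes of a class are not replicates, so no test of the classes against each other was made.

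The inducible cutting subunits were all higher. PSMB9, which takes the place of PSMB6 in the immunoproteasome, had log2 values of 9.62, 9.63 and 9.57 on the ox-LDL arrays, against 9.29, 9.27 and 9.18 on the vehicle arrays. The groups did not overlap, and the means were 9.61 ± 0.03 with ox-LDL and 9.25 ± 0.06 with vehicle (SD, n = 3 each) (log2 difference 0.36 with an SE of 0.07, adjusted p = 0.0332), which is 1.28-fold. PSMB8, which replaces PSMB5, had 9.31, 9.35 and 9.34 on the ox-LDL arrays, against 9.06, 9.18 and 9.05 on the vehicle arrays. It did not pass (log2 difference 0.24 with an SE of 0.07, adjusted p = 0.103), although again every ox-LDL array lay above every vehicle array. PSMB10, which replaces PSMB7, had 7.996, 7.98 and 7.97 on the ox-LDL arrays, against 7.83, 7.90 and 7.62 on the vehicle arrays. Its groups did not overlap either, and it did not pass (log2 difference 0.20 with an SE of 0.09, adjusted p = 0.216). Without vehicle array 3 its difference was 0.12.

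The constitutive cutting subunits did not pass, and 1 of the 3 was lower. PSMB5, with chymotrypsin-like activity, had 10.70, 10.80 and 10.75 on the ox-LDL arrays, against 10.51, 10.64 and 10.64 on the vehicle arrays (log2 difference 0.15 with an SE of 0.08, adjusted p = 0.253). PSMB6, with caspase-like activity, had 10.11, 10.17 and 10.07 on the ox-LDL arrays, against 10.02, 10.00 and 10.09 on the vehicle arrays (log2 difference 0.08 with an SE of 0.07, adjusted p = 0.487), and the groups overlapped. PSMB7, with trypsin-like activity, had 11.08, 11.11 and 11.11 on the ox-LDL arrays, against 11.13, 11.20 and 11.12 on the vehicle arrays, so every ox-LDL array was lower, by little (log2 difference -0.05, 95% confidence interval -0.21 to 0.11).

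At the level of RNA, each inducible subunit was set against its constitutive counterpart as a log2 ratio on the same array. This measure was chosen after the values were seen, and exchange of subunits in the particle was not measured. For PSMB9 over PSMB6 the ratio was higher by 0.28 with ox-LDL (SD 0.02 with ox-LDL and 0.11 with vehicle, n = 3 each) and for PSMB10 over PSMB7 by 0.25 (SD 0.03 and 0.11), with no overlap of arrays (exact two-sided permutation p = 0.10 for each, the smallest that 3 against 3 allows). For PSMB8 over PSMB5 it was higher by 0.09 (SD 0.03 and 0.08), and the arrays overlapped (exact permutation p = 0.2). Adjusted over the 3 ratios the p-values were 0.15, 0.15 and 0.2. As no p under 0.10 is possible here, no ratio could have passed. The test thus cannot decide whether the ratios differ between the groups. Without vehicle array 3 the differences were 0.21, 0.19 and 0.04.

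PSMB8 and PSMB9 lie among 5 neighbouring genes of the major histocompatibility complex on chromosome 6, in the RefSeq order TAP2, PSMB8, PSMB8-AS1, TAP1 and PSMB9. TAP1 and TAP2 encode the transporter that carries proteasome-made peptides into the endoplasmic reticulum. For all 5 the ox-LDL arrays lay above the vehicle arrays, and TAP2, PSMB8-AS1 and PSMB9 rose. Of all probe sets 19.1% lay so and 3.48% rose, and of the 10724 brighter ones 31.5% lay so and 598 rose. The stretch ends at TAP2 and PSMB9, which both rose, so its counts are no test of the locus. PSMB8-AS1 and PSMB9 are also among the 3 calls given above. PSMB8-AS1 had 6.91, 6.91 and 6.91 on the ox-LDL arrays, against 6.68, 6.56 and 6.48 on the vehicle arrays (log2 difference 0.34 with an SE of 0.08, adjusted p = 0.0492). This RNA overlaps PSMB8 on the opposite strand, and the probe sequences were not used here, so whether the 2 values are independent was not tested. TAP2 had 8.50, 8.63 and 8.43 on the ox-LDL arrays, against 8.04, 8.20 and 8.08 on the vehicle arrays (log2 difference 0.41 with an SE of 0.09, adjusted p = 0.0378). TAP1, whose start lies beside that of PSMB9 on the opposite strand, had 7.76, 7.61 and 7.61 on the ox-LDL arrays, against 7.20, 7.48 and 7.09 on the vehicle arrays and did not pass (log2 difference 0.40 with an SE of 0.12, adjusted p = 0.0891).

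**Figure D3:**
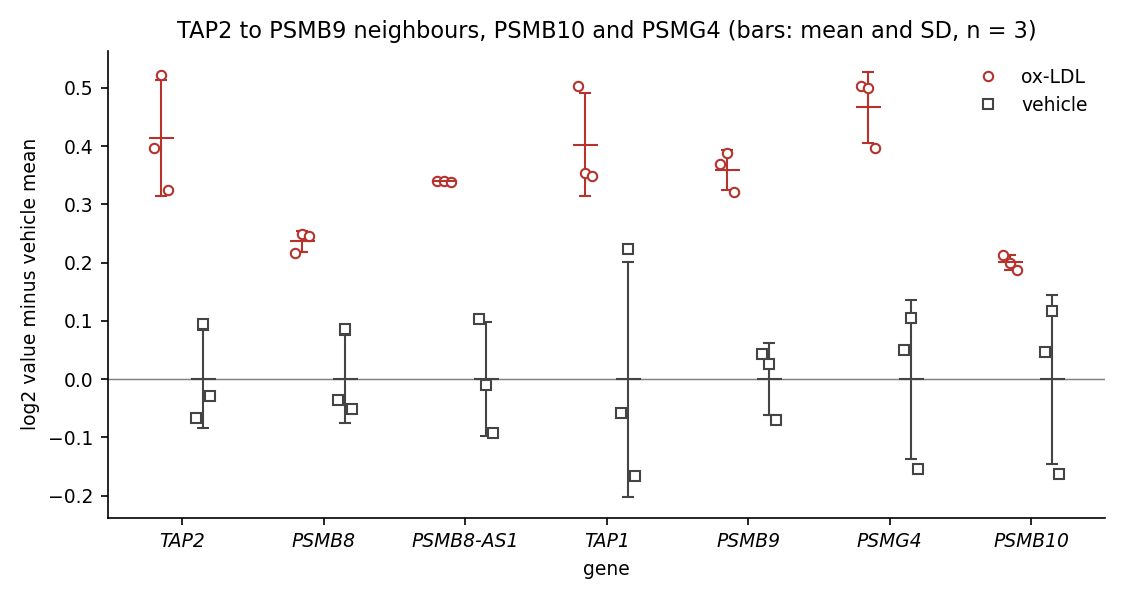
Log2 values relative to the vehicle mean for the 5 neighbours from TAP2 to PSMB9 in genome order, then PSMG4 and PSMB10. Circles are ox-LDL arrays, squares vehicle arrays, and bars the mean and SD (n = 3). The ox-LDL arrays of PSMB9 lie about 0.36 above its vehicle mean, and no gene shows overlapping groups.

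The sequences upstream of the 3 genes that rose are shown with that of PSMB10, the inducible subunit outside this locus. Each is the 250 bases before a RefSeq transcript start (GRCh38.p14), 5′ to 3′ on the gene's strand, with matches in capitals to 3 motifs searched on both strands. These are GAAA followed by GAAA with any 2 bases between, the repeat bound by interferon regulatory factors, TGACNNNGC, the core of the antioxidant response element bound by NFE2L1 and NFE2L2 with Maf proteins, and CCAAT, bound by NF-Y. The motifs do not overlap one another in these 4 windows.
PSMB9 (chr6:32853942-32854191, plus strand): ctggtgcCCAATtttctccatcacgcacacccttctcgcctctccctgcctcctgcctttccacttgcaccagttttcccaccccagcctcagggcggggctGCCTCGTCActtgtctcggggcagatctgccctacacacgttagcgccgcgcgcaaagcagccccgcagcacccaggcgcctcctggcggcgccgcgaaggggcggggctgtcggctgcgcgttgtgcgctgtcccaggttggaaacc
PSMB8-AS1 (chr6:32843836-32844085, plus strand): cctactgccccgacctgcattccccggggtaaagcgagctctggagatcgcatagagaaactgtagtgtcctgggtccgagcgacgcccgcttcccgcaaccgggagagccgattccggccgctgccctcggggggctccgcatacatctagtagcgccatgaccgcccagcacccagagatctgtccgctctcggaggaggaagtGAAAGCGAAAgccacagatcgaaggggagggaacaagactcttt
PSMG4 (chr6:3258697-3258946, plus strand): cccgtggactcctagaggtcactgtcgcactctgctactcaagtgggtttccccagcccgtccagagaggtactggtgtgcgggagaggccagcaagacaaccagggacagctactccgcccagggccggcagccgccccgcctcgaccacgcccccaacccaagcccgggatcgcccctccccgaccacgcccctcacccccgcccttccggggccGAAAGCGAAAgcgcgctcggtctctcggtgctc
PSMB10 (chr16:67936851-67937100, minus strand): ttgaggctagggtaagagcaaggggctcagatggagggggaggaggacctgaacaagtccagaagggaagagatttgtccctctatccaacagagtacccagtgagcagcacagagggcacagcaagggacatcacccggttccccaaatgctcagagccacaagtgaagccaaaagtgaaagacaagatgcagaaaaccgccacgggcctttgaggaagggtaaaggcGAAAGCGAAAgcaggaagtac

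PSMB8-AS1, PSMG4 and PSMB10 each held the letters GAAAGCGAAA, ending 35, 24 and 12 bases before the start. The PSMB9 window held a TGACNNNGC match on the opposite strand, 148 to 140 bases before the start, and a CCAAT 243 to 239 bases before it. Of the 49 genes, 43 had at least 1 window in the RefSeq table. The GAAA repeat was found in 5 of them, PSMA4, PSMB4, PSMB8-AS1, PSMB10 and PSMG4, which is 11.6%, against 3.71% of all 27305 genes with a window. PSMB8, the remaining inducible subunit, whose window is not shown, was not among these 5. TGACNNNGC was found in 12 (27.9%, against 13.2%), and CCAAT in 20 (46.5%, against 37.0%). A match describes letters in this window and does not show binding.

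The alpha subunits had the highest median of the subunit groups with 5 or more genes. For PSMA1 to PSMA7 it was 0.28, 6 of 7 were above 0, and for the same 6 the ox-LDL arrays lay above the vehicle arrays, yet none passed. Of all probe sets 44.9% were above 0 and 19.1% had such arrays, and of the brighter ones 57.5% and 31.5%. PSMA3 had 9.79, 9.82 and 9.84 on the ox-LDL arrays, against 9.64, 9.46 and 9.25 on the vehicle arrays (log2 difference 0.37 with an SE of 0.11, adjusted p = 0.0912), with the lowest value on vehicle array 3. PSMA5 had 10.45, 10.38 and 10.42 on the ox-LDL arrays, against 10.46, 10.41 and 10.39 on the vehicle arrays, with mixed arrays and a log2 difference of -0.003 (95% confidence interval -0.16 to 0.16). The others were PSMA2 at 0.29, PSMA6 at 0.28, PSMA4 at 0.28, PSMA1 at 0.25 and PSMA7 at 0.10. Vehicle array 3 was the lowest array for 5 of the 7, and without it the median was 0.16 and the log2 differences of PSMA1, PSMA2 and PSMA4 were 0.10, 0.18 and 0.16.

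Among the 7 constitutive beta subunits the median was 0.10, and none passed. PSMB1, a structural subunit, had the largest difference, with 9.80, 9.90 and 9.89 on the ox-LDL arrays, against 9.72, 9.73 and 9.59 on the vehicle arrays (log2 difference 0.18 with an SE of 0.08, adjusted p = 0.192). PSMB2, PSMB4 and PSMB3 had log2 differences of 0.13, 0.10 and 0.05. The tissue-specific subunits were dim. PSMA8, which replaces PSMA7 in testis, had 3.18, 3.26 and 3.33 on the ox-LDL arrays, against 3.28, 3.24 and 3.14 on the vehicle arrays, at or below the negative control percentile throughout. PSMB11, of thymic epithelium, had 5.53, 5.51 and 5.54 on the ox-LDL arrays, against 5.58, 5.63 and 5.58 on the vehicle arrays, not far above that percentile, and its ox-LDL arrays were all slightly lower (log2 difference -0.07, adjusted p = 0.517).

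In the base, the 5 measured ATPases, which unfold proteins and open the core, had small and similar differences. Their log2 differences ran from 0.07 for PSMC6 to 0.18 for PSMC3, with PSMC2 at 0.07, PSMC1 at 0.07 and PSMC4 at 0.10, and none passed. PSMC3 had 10.48, 10.50 and 10.56 on the ox-LDL arrays, against 10.25, 10.32 and 10.44 on the vehicle arrays (log2 difference 0.18 with an SE of 0.08, adjusted p = 0.21), and its groups did not overlap. PSMC6 had 9.79, 9.76 and 9.64 on the ox-LDL arrays, against 9.66, 9.69 and 9.62 on the vehicle arrays, and they did.

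The scaffold subunits of the base and the ubiquitin receptor PSMD4 differed in sign. PSMD1, a scaffold of the base, had 10.75, 10.75 and 10.72 on the ox-LDL arrays, against 10.50, 10.46 and 10.43 on the vehicle arrays. The groups were well apart, with means of 10.74 ± 0.02 with ox-LDL and 10.46 ± 0.03 with vehicle (SD, n = 3 each), and the difference narrowly missed the threshold (log2 difference 0.28 with an SE of 0.07, adjusted p = 0.0559), which it passed without vehicle array 3 (log2 difference 0.26, adjusted p = 0.0345). PSMD2, its partner scaffold, had a log2 difference of 0.17 (adjusted p = 0.209). PSMD4, a ubiquitin receptor, had 10.02, 9.99 and 10.09 on the ox-LDL arrays, against 10.22, 10.19 and 10.16 on the vehicle arrays. It was lower on every ox-LDL array and had the most negative difference of the 49 genes, but did not pass (log2 difference -0.16 with an SE of 0.07, adjusted p = 0.207). ADRM1 is another ubiquitin receptor of the base, named outside the rule. It had 9.86, 9.89 and 9.86 on the ox-LDL arrays, against 9.84, 9.91 and 10.02 on the vehicle arrays. Its log2 difference was -0.05 with an SE of 0.07 (adjusted p = 0.679 in limma), and -0.01 without vehicle array 3.

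The lid, which removes ubiquitin chains, had a median of 0.07 over 6 subunits and no call. PSMD14, the metalloprotease that cuts off the chain, had 10.50, 10.50 and 10.45 on the ox-LDL arrays, against 10.53, 10.50 and 10.34 on the vehicle arrays, overlapping groups (log2 difference 0.03, 95% confidence interval -0.16 to 0.22). PSMD6 had the largest difference, with 9.64, 9.78 and 9.73 on the ox-LDL arrays, against 9.72, 9.63 and 9.17 on the vehicle arrays, and vehicle array 3 stands alone there. With it the log2 difference was 0.21 (SE 0.15) and without it 0.04. PSMD8 had 11.08, 11.11 and 11.06 on the ox-LDL arrays, against 11.05, 11.10 and 11.11 on the vehicle arrays (log2 difference -0.0032, 95% confidence interval -0.16 to 0.15), and PSMD11, PSMD12 and PSMD3 had log2 differences of 0.11, 0.07 (or 0.03 without vehicle array 3) and 0.06. SEM1, a small lid subunit outside the rule, had values of 3.75, 3.95 and 3.99 on the ox-LDL arrays, against 4.04, 3.61 and 3.93 on the vehicle arrays, at or below the negative control percentile.

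Chaperones of base assembly, which leave the finished particle, included PSMD9 with 8.89, 8.74 and 8.75 on the ox-LDL arrays, against 8.52, 8.52 and 8.29 on the vehicle arrays. Its groups did not overlap, but it did not pass (log2 difference 0.35 with an SE of 0.09, adjusted p = 0.0777). PSMD10, also called gankyrin, had 10.12, 10.16 and 10.07 on the ox-LDL arrays, against 10.09, 10.18 and 9.99 on the vehicle arrays (log2 difference 0.03, 95% confidence interval -0.15 to 0.22), and PSMD5 had a log2 difference of 0.22 (SE 0.11), or 0.12 without vehicle array 3. PAAF1, another such chaperone named outside the rule, rose. It had 8.34, 8.24 and 8.47 on the ox-LDL arrays, against 7.75, 7.91 and 7.68 on the vehicle arrays (log2 difference 0.57 with an SE of 0.10, adjusted p = 0.0202). PAAF1 lost its call without any 1 ox-LDL array or vehicle array 1. It was also not called with an unmoderated t statistic or with the replicate number as a block.

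Chaperones of core assembly included the gene with the largest difference, PSMG1, and PSMG4, which rose. PSMG4, which pairs with PSMG3, had 8.42, 8.41 and 8.31 on the ox-LDL arrays, against 7.96, 8.02 and 7.76 on the vehicle arrays. The means were 8.38 ± 0.06 with ox-LDL and 7.91 ± 0.14 with vehicle (SD, n = 3 each), which is 1.38-fold (log2 difference 0.47 with an SE of 0.09, adjusted p = 0.0324). PSMG3 itself had 8.87, 8.85 and 8.88 on the ox-LDL arrays, against 8.82, 8.85 and 8.97 on the vehicle arrays, with vehicle array 3 the highest array, and a log2 difference of -0.01 (95% confidence interval -0.19 to 0.16). The difference between these partners was not tested. PSMG1, which pairs with PSMG2, had 9.22, 9.43 and 9.46 on the ox-LDL arrays, against 8.95, 9.07 and 7.61 on the vehicle arrays. Vehicle array 3 lay more than a log2 unit below its group, and the difference of 0.82 (SE 0.37, adjusted p = 0.208) was 0.36 without it (adjusted p = 0.0635). PSMG2 had 11.00, 10.98 and 10.94 on the ox-LDL arrays, against 11.06, 11.05 and 10.87 on the vehicle arrays (log2 difference -0.02 with an SE of 0.08, adjusted p = 0.913). POMP, the maturation factor of the core, outside the rule, had 10.48, 10.47 and 10.41 on the ox-LDL arrays, against 10.23, 10.27 and 9.81 on the vehicle arrays (log2 difference 0.35 with an SE of 0.13, adjusted p = 0.151). Its groups did not overlap, and without vehicle array 3 the difference was 0.20.

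**Figure D4:**
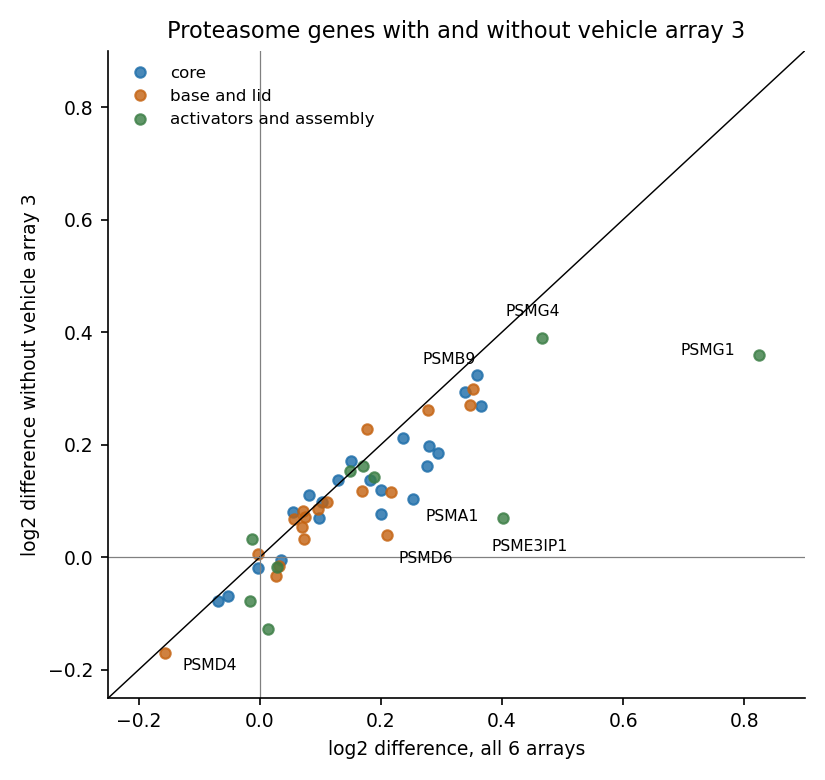
Log2 difference of each proteasome gene with all 6 arrays (horizontal) and without vehicle array 3 (vertical), coloured by class, with the line of equality. Most points lie below the line, farthest PSMG1 (0.82 and 0.36) and PSME3IP1 (0.40 and 0.07).

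The alternative activators and the inhibitor did not pass. PSME1, part of the interferon-inducible activator ring, had 10.44, 10.47 and 10.50 on the ox-LDL arrays, against 10.23, 10.39 and 10.28 on the vehicle arrays (log2 difference 0.17 with an SE of 0.07, adjusted p = 0.204). PSME3, which forms the nuclear activator, had 11.14, 11.07 and 11.06 on the ox-LDL arrays, against 10.97, 10.91 and 10.95 on the vehicle arrays (log2 difference 0.15 with an SE of 0.07, adjusted p = 0.22), and in neither did the groups overlap. PSME4, a large nuclear activator, had 9.34, 9.26 and 9.45 on the ox-LDL arrays, against 9.33, 9.41 and 9.23 on the vehicle arrays, with overlapping groups (log2 difference 0.03, 95% confidence interval -0.18 to 0.23). PSMF1, a proteasome inhibitor in vitro, had 11.30, 11.24 and 11.32 on the ox-LDL arrays, against 11.16, 11.13 and 11.01 on the vehicle arrays, all ox-LDL arrays above all vehicle arrays (log2 difference 0.19 with an SE of 0.08, adjusted p = 0.177). PSME3IP1, a binding partner of PSME3, had a log2 difference of 0.40 (SE 0.26), which was 0.07 without vehicle array 3. The remaining symbols were PSMC3IP at 0.35 (adjusted p = 0.0558, or 0.0449 without vehicle array 3), PSMA3-AS1 at 0.20 (adjusted p = 0.306, and 0.08 without that array) and PSMG3-AS1 at 0.01 (adjusted p = 0.955, and -0.13 without it).

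The genes of NFE2L1 and NFE2L2, transcription factors known to drive proteasome genes, fell. When proteasome activity falls short, NFE2L1 escapes degradation, is cut free from the endoplasmic reticulum membrane and turns on proteasome genes together with small Maf proteins. Of 10 measured genes of this control, 5 fell and 5 did not pass (median -0.23, against -0.03 over all tested probe sets, of which 3.29% fell). Of the 10724 brighter probe sets 569 fell, and their median was 0.05. NFE2L1 had 10.94, 10.94 and 10.99 on the ox-LDL arrays, against 11.33, 11.32 and 11.39 on the vehicle arrays (log2 difference -0.39 with an SE of 0.07, adjusted p = 0.0212). NFE2L2, the related antioxidant factor NRF2, had 10.34, 10.35 and 10.32 on the ox-LDL arrays, against 10.75, 10.72 and 10.75 on the vehicle arrays (log2 difference -0.41 with an SE of 0.06, adjusted p = 0.0161). In both the groups were far apart relative to their spread.

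MAFF, a small Maf partner, had 8.37, 8.36 and 8.40 on the ox-LDL arrays, against 8.84, 8.89 and 9.22 on the vehicle arrays (log2 difference -0.61 with an SE of 0.11, adjusted p = 0.0268). SYVN1, the ubiquitin ligase of the endoplasmic reticulum that marks NFE2L1 for degradation, had 10.24, 10.23 and 10.20 on the ox-LDL arrays, against 11.18, 11.00 and 11.10 on the vehicle arrays (log2 difference -0.87 with an SE of 0.08, adjusted p = 0.00226), the largest fall of the list. SEL1L, its cofactor, had 10.58, 10.69 and 10.55 on the ox-LDL arrays, against 11.05, 11.05 and 10.91 on the vehicle arrays (log2 difference -0.40 with an SE of 0.08, adjusted p = 0.0349). SYVN1 and SEL1L also serve the disposal of misfolded proteins in that compartment. SYVN1 kept its call without any 1 array, while NFE2L1, NFE2L2 and SEL1L lost theirs without any 1 array other than vehicle array 3, and MAFF without vehicle array 2 or any ox-LDL array. With equal array medians SEL1L was not called. An unmoderated t statistic did not call MAFF or SEL1L. With the replicate number as a block only SYVN1 of the partner genes was called. HCFC1, a coactivator of NFE2L1, and BTRC, a ubiquitin ligase subunit that targets it in the nucleus, did not pass. They were at 0.15 (adjusted p = 0.204) and 0.16 (adjusted p = 0.211) on the log2 scale. The unmoderated t statistic did call HCFC1 (background 5.07%).

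In the rest of the ubiquitin system 1 gene passed. Of 11 measured subunits, chaperones and bound factors outside the rule, PAAF1 rose and 10 did not pass (median 0.05, against 3.48% of all probe sets that rose), with ZFAND5, a stimulator of proteasome activity, at -0.24 (adjusted p = 0.133). None of the 3 ubiquitin and activating enzyme genes passed in limma (UBA6 0.08, or 0.03 without vehicle array 3, and UBB -0.01). None of the 5 shuttle factors passed, with UBQLN2 at 0.19 (adjusted p = 0.149) and RAD23B at 0.17, or 0.08 without vehicle array 3. None of the 10 genes of VCP, the segregase that extracts proteins for degradation, and its cofactors passed: VCP was at -0.0041 (95% confidence interval -0.17 to 0.16), UBXN1 at -0.25 and NSFL1C at -0.18. None of 4 ubiquitin hydrolases and COP9 signalosome subunits passed (COPS6 0.18, COPS5 -0.10, or -0.06 without vehicle array 3). At an unadjusted p under 0.05 these 4 lists had 0, 1, 1 and 0 members, against 26.1% of all probe sets. UBXN1 passed among brighter probe sets, with an intensity trend and robust variance and with array weights, UBQLN2 among brighter probe sets and with array weights, and no gene of these lists under the other alternatives.

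Interferon-related and antigen-processing partners of the immunoproteasome were mixed. Of 10 measured, ERAP2, a peptide-trimming peptidase, rose with 6.67, 6.86 and 6.68 on the ox-LDL arrays, against 6.21, 6.36 and 6.14 on the vehicle arrays (log2 difference 0.50 with an SE of 0.09, adjusted p = 0.0271), TAP2 rose as given above, IRF9 fell and 7 did not pass (median 0.06). Over all probe sets 3.48% rose and 3.29% fell. IRF9, part of the factor that answers type I interferon, had 8.73, 8.75 and 8.72 on the ox-LDL arrays, against 9.04, 9.24 and 9.02 on the vehicle arrays (log2 difference -0.37 with an SE of 0.08, adjusted p = 0.0499), at the edge of the threshold. NLRC5, the transactivator of class I genes, had a log2 difference of 0.25 (adjusted p = 0.169). TAP2 and IRF9 lost their calls without any 1 array other than vehicle array 3, and ERAP2 without any 1 ox-LDL array or vehicle array 1. IRF9 was also not called with equal array medians, nor TAP2 after a second quantile normalization. ERAP2, TAP2 and IRF9 were not called with an unmoderated t statistic or with the replicate number as a block.

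**Figure D5:**
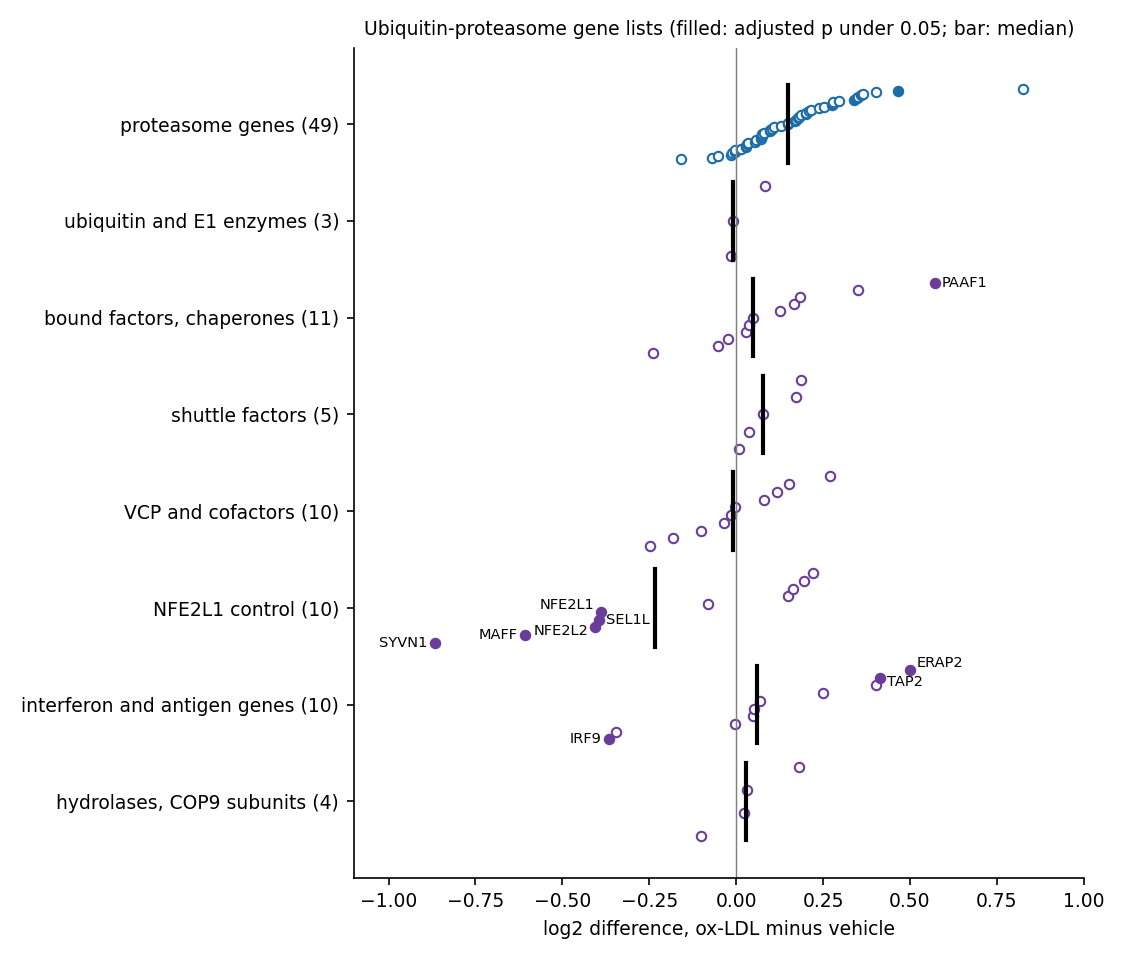
Log2 difference, ox-LDL minus vehicle, of the proteasome genes and of 7 lists of partner genes, with 1 point per gene, filled where it passed the test and named outside the proteasome row, and a bar at each median. The 5 filled points of the NFE2L1 control list lie left of 0, where 7 of 49 proteasome genes lie.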

How the data were processed

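RNA from 6 T24 samples (3 ox-LDL, 3 vehicle) was measured on single-colour Affymetrix arrays from 500 ng of total RNA, per the labels' protocols. The deposited values are on the log2 scale and came from RMA, per the submitters' processing notes. Its version and the annotation used were not given in the sources used here. RMA equalises the distribution of probe values across arrays and compresses values near background. Dim genes are thus understated and changes of total RNA are not seen. Medians over the tested probe sets were still not equal, at 7.18 on vehicle array 3 and 7.11 to 7.12 on the other 5 arrays. Of 24350 probe sets, 2902 controls were left out. The platform's gene table gave 1 symbol to 17709 of the 21448 tested, several to 0 and none to 3739.

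All 6 arrays entered 1 limma model (limma 3.58.1, R 4.3.3; tables with pandas 2.3.3, figures with matplotlib 3.10.9), two-sided, adjusted by Benjamini-Hochberg over 21448 probe sets and called under 0.05. Errors are SD over arrays or limma's SE. The ratios of beta subunits were tested by exact permutation over arrays (scipy 1.17.1). Members, lists and tests were chosen with earlier results of these data known. Array values are given for genes that were called, for a fixed set (cutting, tissue-specific and chaperone subunits, activators, PSMD4, PSMD14) and for the extremes of each role; of partner lists, for called genes, NFE2L1, NFE2L2, POMP, ADRM1 and SEM1, and TAP1 was added for its place beside PSMB9. VCP and the 2 uncalled genes with the smallest p in each list are given by their differences. CIITA and other list members are in the counts alone. The number of arrays limits precision. Upstream sequences are from RefSeq. On simulated data for 21448 probe sets the fit recovered 21% of 100 probe sets changed 1.5-fold and 79% of 100 changed 2-fold, with 5 false calls. The simulated noise was independent and normal and no array stood apart, as vehicle array 3 does here, so these rates need not hold for the data. Alternatives were other scalings, a filter on dim probe sets, other variance models, array weights, the replicate number as a block, the design text's selection and leaving out each array.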

Additional observations from a re-analysis of the deposited data

How the results depend on the processing

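The positive median of the proteasome genes held under every alternative run, at 0.10 to 0.18, but none of the 3 calls did. Among the proteasome genes, the partner genes, the lower genes of NFE2L1 control and all probe sets, the numbers called were 3, 9, 5 and 1451. They were 2, 9, 5 and 1470 under cyclic loess, 2, 8, 5 and 1414 under repeated quantile normalization, 2, 7, 4 and 1424 when array medians were made equal, 7, 11, 5 and 2608 among brighter probe sets, 10, 11, 5 and 2649 with a robust fit and intensity trend, 9, 11, 5 and 3962 with array weights, 2, 4, 3 and 1087 with an unmoderated t statistic, and 0, 1, 1 and 496 by the design text's selection. With 1 array left out they ran from 0 to 5, 1 to 9, 1 to 5 and 305 to 2670; the proteasome count was 5 without vehicle array 3 and 0 without any other array. With the replicate number as a block they were 0, 1, 1 and 550. The labels do not say whether the numbers pair the samples. Same-numbered arrays' deviations correlated at -0.0061, 0.03 and 0.02, and not every array correlated best with its own number. With 3 arrays per group these correlations cannot decide whether the samples were paired. The core median was 0.12 after cyclic loess and 0.12 to 0.21 with 1 array left out, and the base and lid median 0.0286 after cyclic loess. Calls among higher genes made 47.8% to 57.7% of all calls under other scalings, 60.2% among brighter probe sets, 60.7% with the robust fit, 54% with array weights, 50.2% with the unmoderated statistic, 44.4% with the block, 31.4%, 30.5% and 31.6% without ox-LDL array 1, 2 or 3 and 50.4%, 46.2% and 54.3% without vehicle array 1, 2 or 3, against 51.4%. The cause of these shifts was not tested beyond the construction of each alternative.

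The sign of small differences was not fixed. After a second quantile normalization it turned for PSME4 (-0.0277), PSMD14 (-0.0068), PSMB11 (0.0116), VCP (0.0038). After cyclic loess it turned for PSME4 (-0.0351), PSMD10 (-0.0309), PSMD14 (-0.0318), PSMD3 (-0.0053), PSMB3 (-0.0044), PSMB11 (0.0418). With array weights it turned for PSME4 (-0.0327), PSMG3 (0.0189), PSMG3-AS1 (-0.0907), PSMD10 (-0.0274), PSMD14 (-0.0159). With equal array medians it turned for PSMG2 (0.0145), PSMG3 (0.0178), PSMD8 (0.0272), PSMA5 (0.0275), VCP (0.0263), UBB (0.0167). Over the fits that leave out 1 array, the range crossed 0, among proteasome genes and the partner genes named in the text, for PSME4 (-0.0217 to 0.0739), PSMG2 (-0.0777 to 0.0178), PSMG3 (-0.0439 to 0.0329), PSMG3-AS1 (-0.1271 to 0.1048), PSMD10 (-0.0159 to 0.0765), PSMD14 (-0.0330 to 0.0667), PSMD8 (-0.0204 to 0.0091), PSMA5 (-0.0199 to 0.0157), PSMA8 (-0.0051 to 0.0736), SEM1 (-0.0895 to 0.1294), VCP (-0.0356 to 0.0126), UBB (-0.0604 to 0.0152).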
